A study of Mus musculus with 12 samples.

Results

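The nuclear-encoded subunits of the respiratory chain and ATP synthase were followed in the hippocampus of stressed, treated and unstressed mice. They were taken from the deposited table by name: protein-coding rows whose symbols belong to the Nduf, Sdh, Uqcr, Cox4 to Cox8 and Atp5 families. The rule found 90 of 78298 rows, 40 named for complex I, 4 for complex II, 8 for complex III, 19 for complex IV and 19 for complex V, and of these 84 passed the count filter that left 18600 genes to test. Treatment mice went through 28 days of chronic unpredictable mild stress and were gavaged daily from day 15, for 14 days, with 20 mg/kg of poricoic acid A, a compound from Poria cocos, a medicinal fungus. Model mice went through the same stress and received saline, and Control mice received saline without stress. All were male C57BL/6 mice bought at 6 to 8 weeks of age and kept only if they preferred sucrose at the start, and each group gave 4 libraries of poly(A) RNA. Whether every library came from its own mouse is not stated, and p-values below rest on the spread among the libraries as they are.

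The respiratory chain passes electrons from NADH (complex I) and succinate (complex II) through complex III to complex IV, which reduces oxygen, and complex V uses the proton gradient this builds to make ATP. A core of complexes I, III, IV and V is encoded in mitochondrial DNA, and the nucleus encodes the rest, including all of complex II. Neurons depend on this pathway to restore ion gradients after firing, and the nuclear genes are classic targets of the transcription factors NRF1 and GABPA (an ETS factor).

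The promoter windows of 6 genes are shown first, and they enter none of the expression tests below. Atp5mk, Atp5mg, Ndufa4 and Ndufc1 were among the members with lower values in Treatment than in the other groups, without overlap with Control on counts. Cox8a and Cox6a1 were the members of highest level in complex IV. Each window runs from 220 bases before to 30 bases after the start of the gene, 5′ to 3′, in the RefSeq sequence of build GRCm38.p6. Capitals mark the NRF1 core GCATGCGC, the ETS core CCGGAAG or the YY1 core AAGATGG, read on both strands.
Atp5mk (chr19:47090618-47090867, minus strand): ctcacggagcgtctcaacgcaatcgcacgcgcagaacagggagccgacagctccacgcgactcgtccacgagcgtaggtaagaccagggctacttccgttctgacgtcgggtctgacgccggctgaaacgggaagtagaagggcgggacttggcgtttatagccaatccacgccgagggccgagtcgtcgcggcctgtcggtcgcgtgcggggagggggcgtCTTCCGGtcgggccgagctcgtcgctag
Atp5mg (chr9:44920713-44920962, minus strand): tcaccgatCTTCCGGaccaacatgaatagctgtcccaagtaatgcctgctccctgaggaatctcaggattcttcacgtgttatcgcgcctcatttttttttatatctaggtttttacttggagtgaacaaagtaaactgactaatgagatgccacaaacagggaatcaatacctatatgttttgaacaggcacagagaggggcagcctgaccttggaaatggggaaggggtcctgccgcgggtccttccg
Ndufa4 (chr6:11907421-11907670, minus strand): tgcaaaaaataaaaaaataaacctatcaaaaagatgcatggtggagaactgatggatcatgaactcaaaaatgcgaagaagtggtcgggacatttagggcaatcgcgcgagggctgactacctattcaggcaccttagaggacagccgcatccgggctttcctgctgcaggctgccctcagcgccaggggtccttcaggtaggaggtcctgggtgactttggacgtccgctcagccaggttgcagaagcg
Ndufc1 (chr3:51408926-51409175, minus strand): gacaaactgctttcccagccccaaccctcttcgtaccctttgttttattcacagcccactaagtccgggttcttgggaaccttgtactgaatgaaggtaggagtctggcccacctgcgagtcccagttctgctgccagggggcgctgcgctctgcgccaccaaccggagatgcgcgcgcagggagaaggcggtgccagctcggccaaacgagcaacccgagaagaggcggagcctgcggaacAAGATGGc
Cox6a1 (chr5:115348929-115349178, minus strand): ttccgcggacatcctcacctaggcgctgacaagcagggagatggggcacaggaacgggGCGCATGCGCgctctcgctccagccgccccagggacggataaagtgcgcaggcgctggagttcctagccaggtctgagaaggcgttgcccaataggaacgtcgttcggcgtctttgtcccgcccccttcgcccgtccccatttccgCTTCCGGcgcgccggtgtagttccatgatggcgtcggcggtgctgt
Cox8a (chr19:7217587-7217836, minus strand): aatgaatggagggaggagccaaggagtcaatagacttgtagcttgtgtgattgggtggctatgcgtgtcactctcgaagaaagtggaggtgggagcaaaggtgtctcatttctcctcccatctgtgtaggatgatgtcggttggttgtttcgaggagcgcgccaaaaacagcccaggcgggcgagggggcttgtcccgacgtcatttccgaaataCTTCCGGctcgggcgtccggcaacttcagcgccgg
The Cox6a1 window held the NRF1 core with GC before it, a palindrome that begins 162 bases before the start, and an ETS core 16 bases before it. Within the bases printed, single ETS cores stood 5 bases before the start in Cox8a, 212 before it in Atp5mg and at position 3 after it in Atp5mk. A YY1 core began at position 23 after the start in Ndufc1, and the Ndufa4 window held none of the 3 cores.

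Windows of 300 bases, from 250 before to 50 after the start, were matched for 68 of the 84 tested members, 72 of all 90, with 16 found by an older symbol. Atp5mj, described further on, was among the tested members without a matched window. Beyond the bases printed above, these longer windows held an ETS core at position 33 after the start in Cox8a and 25 in Atp5mg. That of Atp5mg also held an NRF1 core 240 bases before the start. The NRF1 core preceded by GC, a palindrome of 10 bases, was in 7.35% of the 68 and in 1.32% of 17492 windows of all protein-coding genes. The core GCATGCGC alone, which is part of the palindrome, was in 14.7% against 3.61%, the ETS core CCGGAAG in 23.5% against 11.9% and the YY1 core AAGATGG in 14.7% against 6.37%. Both the NRF1 short core and the ETS core were found in 7.35% of the members' windows and 0.686% of all. The SP1 core GGGCGG was in 42.6% against 46.3%, the CCAAT box (CCAAT) in 41.2% against 39% and the TATA box (TATAAA) in 8.82% against 13.3%. By complex, the ETS core was in 11.8% of 34 windows of complex I and 31.2% of 16 of complex V, and the YY1 core in 20.6% and 12.5%. These matches describe letters in a window and are not evidence of binding.

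The subunits were abundant in all 12 libraries. Levels between genes are given in FPKM, the deposited measure of fragments scaled to effective length and to library size, and 46 of the 84 tested members averaged over 100 FPKM, against 745 of all 18600 tested genes. The median member stood at 111 FPKM, against 6.36 FPKM for all tested genes. The members are also short: their median effective length, the number of positions from which a fragment could come, was 457 bases against 2130 bases, and 73.8% of them lay under 700 bases, against 8.82% of all genes. None is encoded on mitochondrial DNA. They lie on 19 chromosomes, 3 of them on X, and 18 overlap another protein-coding gene, where reads could be shared because the labels do not say whether strand was kept. Rows of the same name pattern that are not protein-coding, 18 pseudogenes and 1 lncRNA, together held 0.115% to 0.176% of the members' counts. Among these the pseudogene Ndufb4c averaged 184 counts and 65.5 FPKM, beside 513 counts and 34.6 FPKM for Ndufb4, with which it may share reads.

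**Figure D1:**
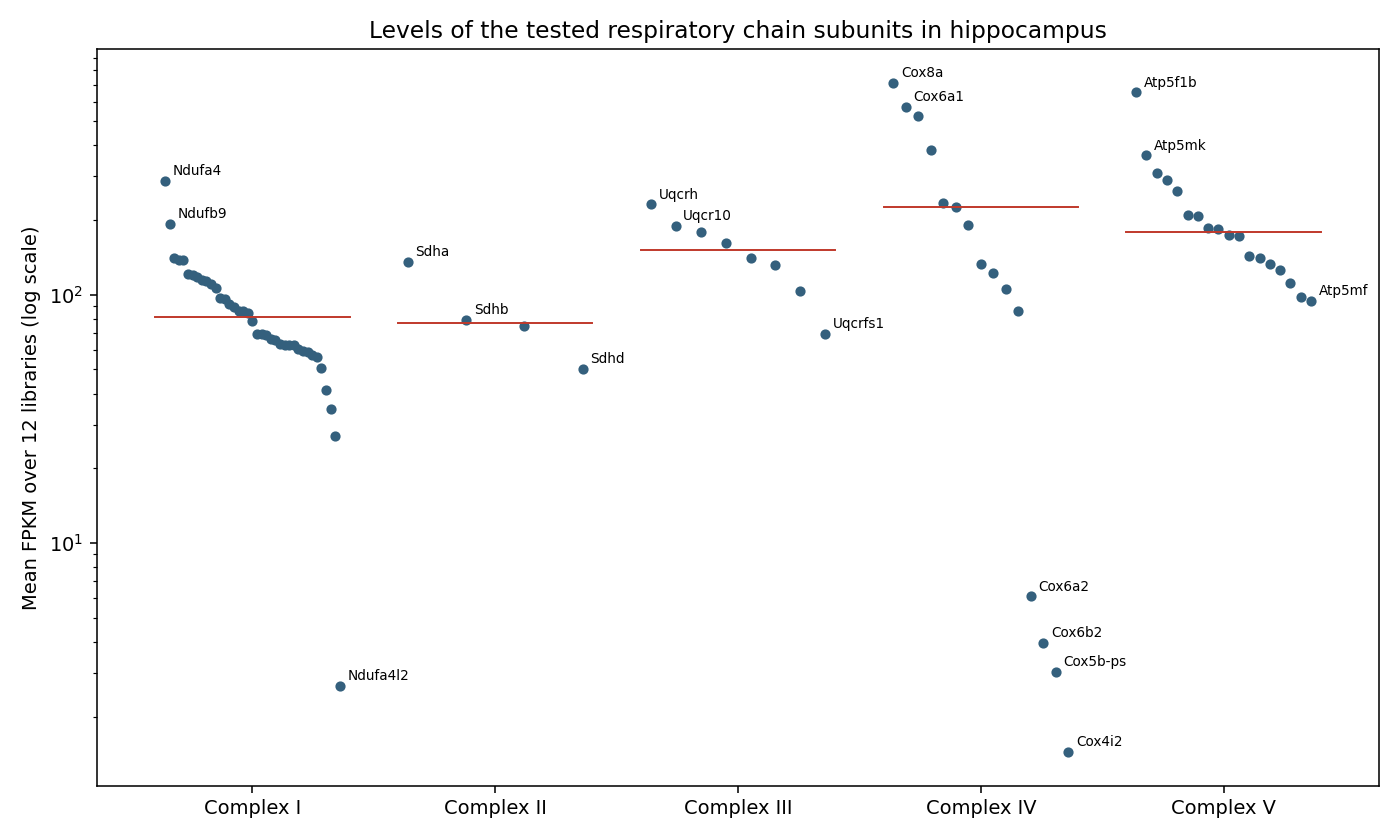
Mean FPKM over 12 libraries (log scale) of each tested subunit, ordered by level within its complex; the red line is the median without the rarer isoforms (Ndufa4l2, Cox4i2, Cox6a2, Cox6b2) and Cox5b-ps. Cox8a stands highest at 713 FPKM, and the rarer isoforms and Cox5b-ps lie between 1.44 and 6.10 FPKM.

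The member of highest level was Cox8a, a small membrane subunit of complex IV, at 713 FPKM, followed by Atp5f1b, the catalytic beta subunit of ATP synthase, at 652 FPKM. In complex IV, Cox6a1 averaged 572 FPKM and Cox4i1, a regulatory subunit that binds ATP, 526 FPKM. In complex V, Atp5mk at 364 FPKM and Atp5f1a, the alpha subunit, at 308 FPKM came after Atp5f1b. In complex III the hinge protein Uqcrh led with 231 FPKM, and Uqcr10 followed with 189 FPKM and Uqcr11 with 179 FPKM. Among members named for complex I the highest were Ndufa4 at 288 FPKM, since reassigned to complex IV, Ndufb9 at 193 FPKM and Ndufa12 at 141 FPKM. Sdha, the flavoprotein of succinate dehydrogenase, averaged 135 FPKM, Sdhb, its iron-sulfur protein, 78.9 FPKM and the membrane anchors Sdhc and Sdhd 74.7 and 50.2 FPKM. The subunits of a complex thus stood at unequal mRNA levels. Without the rarer isoforms the highest was 10.7 times the lowest among 38 members named for complex I. That ratio sets the reassigned Ndufa4, at 288 FPKM, over Ndufb1, at 27.1 FPKM, and the highest apart from Ndufa4 was Ndufb9 at 193 FPKM. The highest was 8.33 times the lowest in complex IV, 6.92 times in complex V, 3.32 times in complex III and 2.69 times in complex II.

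Where a subunit has a paired tissue form, the common form dominated in every library. Cox4i2, the form of lung and hypoxic cells, made up 0.227% to 0.450% of the Cox4i1 and Cox4i2 total in Treatment, 0.187% to 0.294% in Model and 0.211% to 0.320% in Control. Cox6a2, of heart and muscle, made up 0.641% to 1.67% of its pair in Treatment, 0.622% to 1.39% in Model and 0.764% to 1.58% in Control, and Cox6b2, the testis form, 1.81% to 3.13%, 1.57% to 1.81% and 1.42% to 3.43%. Ndufa4l2, a form induced in hypoxia, made up 0.982% to 1.74% of its pair with Ndufa4 in Treatment, 0.368% to 1.12% in Model and 0.476% to 0.991% in Control, so the Treatment range overlapped both others. The muscle forms Cox7a1 and Cox8b reached at most 3.31 and 2.07 FPKM and the testis form Cox7b2 0.839 FPKM, and none of these passed the filter. Cox8c was listed at 0 in all 12 libraries, as was a second row named Atp5po, and Ndufb11b was above 0 in 1 library only, at 0.0531 FPKM. Cox5b-ps, which the table annotates as protein-coding although its name marks a pseudogene, averaged 3.02 FPKM and may share reads with Cox5b.

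Some library differences touch all that follows. Library totals ran from 19535385 to 23665426 estimated counts in Treatment, 18169849 to 23630305 in Model and 17083260 to 27479083 in Control. The effective lengths that follow from the deposited counts and FPKM were shorter, by 12.8 to 26.9 bases for genes over 1000 bases, in Treatment replicates 1, 2 and 3 and Model replicates 3 and 4, and longer, by 7.66 to 24.7 bases, in Treatment replicate 4, Model replicates 1 and 2 and all 4 Control libraries. A short transcript loses a larger share of its positions when fragments lengthen, so each comparison of the members is given both on counts and with the effective length of each gene and library as an offset. All 4 Control libraries were in the longer class, so in Treatment against Control the class and the group are in part the same. All 12 libraries carry batch label 1, but the library names of Treatment replicates 2 and 3 bear the numbers 1631 and 1636, away from the run of the other 10. Markers of adjoining tissue and of cell types differed between groups too. All 17 choroid plexus markers had negative fold changes in Treatment and in Model against Control, of which 0 and 1 passed, with a summed level of 644 to 1913 FPKM in Treatment, 774 to 1122 FPKM in Model and 940.2 to 2981 FPKM in Control, and none of them at 0. All 10 dentate granule cell markers had negative fold changes in Treatment against Model, 5 of them past the threshold (summed level 194 to 202 FPKM in Treatment, 227 to 277 FPKM in Model). All 10 neuron markers had positive ones in Model against Control, 0 past the threshold (3674 to 3886 FPKM in Model, 3404 to 3628 FPKM in Control). All 10 neocortex layer markers had positive ones in Treatment against Model, 3 past the threshold (115 to 155 FPKM in Treatment, 80.2 to 106 FPKM in Model). All 10 ependyma markers had negative ones in each comparison (23.3 to 56.7 FPKM in Treatment, 42.4 to 62.1 FPKM in Model, 54.1 to 69.3 FPKM in Control), 0 past the threshold. Against Model, Treatment had positive ones for all 10 markers of microglia (282 to 329 FPKM, against 241 to 278 FPKM), of endothelium (128 to 166 FPKM, against 114 to 134 FPKM) and of pericytes and smooth muscle (81.6 to 95.9 FPKM, against 70.1 to 74.2 FPKM), with 0, 2 and 0 past the threshold. All 5 red blood cell markers had negative ones in Treatment and in Model against Control, with 0 and 1 past the threshold. They summed to 575 to 803 FPKM in Treatment, 445 to 660 FPKM in Model and 613 to 1065 FPKM in Control. Of 10 thalamus and habenula markers, 9 had negative ones in each of these comparisons, 0 past the threshold. Their sums were 73.2 to 127 FPKM, 78.0 to 145 FPKM and 85.2 to 223 FPKM. No marker of these lists was at 0. The part of these tissue differences in the members' values was not tested, apart from the choroid plexus score given further on. In bulk tissue, fewer cells of a type and less RNA per cell cannot be told apart.

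The Treatment libraries differed among themselves in the summed level of the subunits, and the Model libraries hardly at all. The sum of all 90 members was 10362, 11189, 13455 and 12325 FPKM in Treatment replicates 1 to 4, against 12130.4, 12130.5, 12002 and 12164 FPKM in Model and 12996, 12405, 12177 and 12590.5 FPKM in Control. Treatment replicates 1 and 2 stood below, and replicate 3 above, every Model and Control library. The SD was 1348 FPKM in Treatment, 71.8 FPKM in Model and 347 FPKM in Control, and the means of 11833, 12107 and 12542 FPKM lay within the Treatment spread. As a share of all counts, which does not use lengths, the members held 0.597%, 0.625%, 0.732% and 0.716% in Treatment, 0.704%, 0.707%, 0.675% and 0.675% in Model, and 0.738%, 0.700%, 0.698% and 0.716% in Control. On this scale Treatment replicates 1 and 2 were again the lowest of the 12, and replicate 3 was within the range of Control.

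All 5 complexes repeated this order. Summed over complex I, the libraries stood at 2837, 3137, 3794 and 3525 FPKM in Treatment, 3473, 3498, 3331 and 3444 FPKM in Model and 3783, 3516, 3478 and 3575 FPKM in Control. Complex II, which has no mitochondrially encoded partner, stood at 307, 328, 372 and 344 FPKM in Treatment, 329, 334, 333 and 345 FPKM in Model and 359, 338, 334 and 342 FPKM in Control. Complex III reached 1040.4, 1072, 1340.4 and 1223 FPKM in Treatment against 1194 to 1218 FPKM in Model and 1197 to 1284 FPKM in Control. Complex IV gave 2888, 3155, 3849 and 3396 FPKM in Treatment, 3167 to 3289 FPKM in Model and 3254 to 3437 FPKM in Control, and complex V 3290.0, 3497, 4099 and 3836 FPKM, 3845 to 3913 FPKM and 3915 to 4136 FPKM. In each complex Treatment replicates 1 and 2 were the lowest of the 12 libraries, and replicate 3 the highest in complexes I to IV. Treatment replicate 1 alone was the lowest library for 46 of the 84 tested members by FPKM and for 40 by CPM (counts scaled to library size), and it was lowest for 11.8% of all tested genes by FPKM. Replicate 3 was the highest for 35 members by FPKM, where it was highest for 15.5% of all tested genes, and for 20 members by CPM. Control replicate 1 was the highest for 25 by FPKM, against 9.12% of all genes, and for 32 by CPM, the most of any library. The same library stood highest in thalamus and habenula markers. Relative to each gene's mean their median log2 CPM was 1.28 there, against -0.44 to 0.35 in the other libraries. For red blood cell markers it was 0.86, against -0.56 to 0.32.

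**Figure D2:**
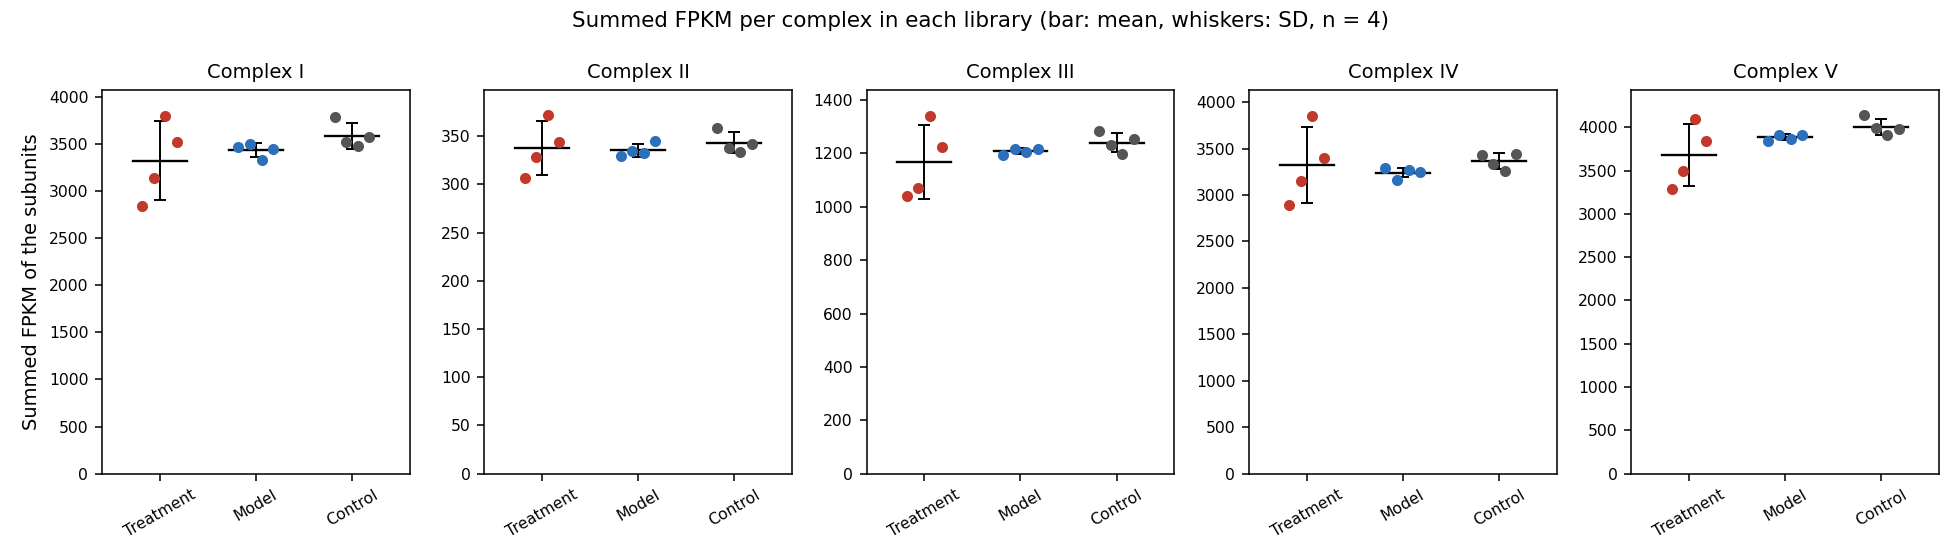
Summed FPKM of the subunits named for each complex in every library (points, replicates 1 to 4 from left to right), with the group mean (bar) and SD (whiskers, n = 4). In Treatment, replicates 1 and 2 lie below and replicate 3 mostly above all Model and Control libraries, which lie close together.

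Gene by gene, the median SD of log2(FPKM + 0.1) within a group was 0.20 in Treatment, 0.08 in Model and 0.08 in Control for the members, against 0.20, 0.16 and 0.15 for all tested genes. Over all 12 libraries the median biological coefficient of variation of the members was 8.94%, against 10.4% for all tested genes, and 60 of the 84 lay below that median of all genes. Ndufb2, Sdha and Ndufs1 varied least, and Cox5b-ps, Cox6a2 and Ndufa4l2, all of low level, most. In other gene lists the Treatment libraries stood in a like order. Relative to each gene's mean over the 12 libraries, the median log2 CPM of the members was -0.25, -0.20, 0.04 and 0.09 in Treatment replicates 1 to 4. It was -0.15, -0.12, 0.11 and 0.04 for 26 genes of mitochondrial protein import, -0.11, -0.12, 0.06 and 0.06 for 16 complex I assembly factors, and -0.11, -0.06, 0.20 and 0.09 for 17 glycolysis enzymes. For 20 regulators of respiratory gene transcription the values were 0.05, 0.05, -0.06 and -0.01, and for the 13 mitochondrially encoded mRNAs -0.06, -0.09, 0.02 and 0.18.

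**Figure D3:**
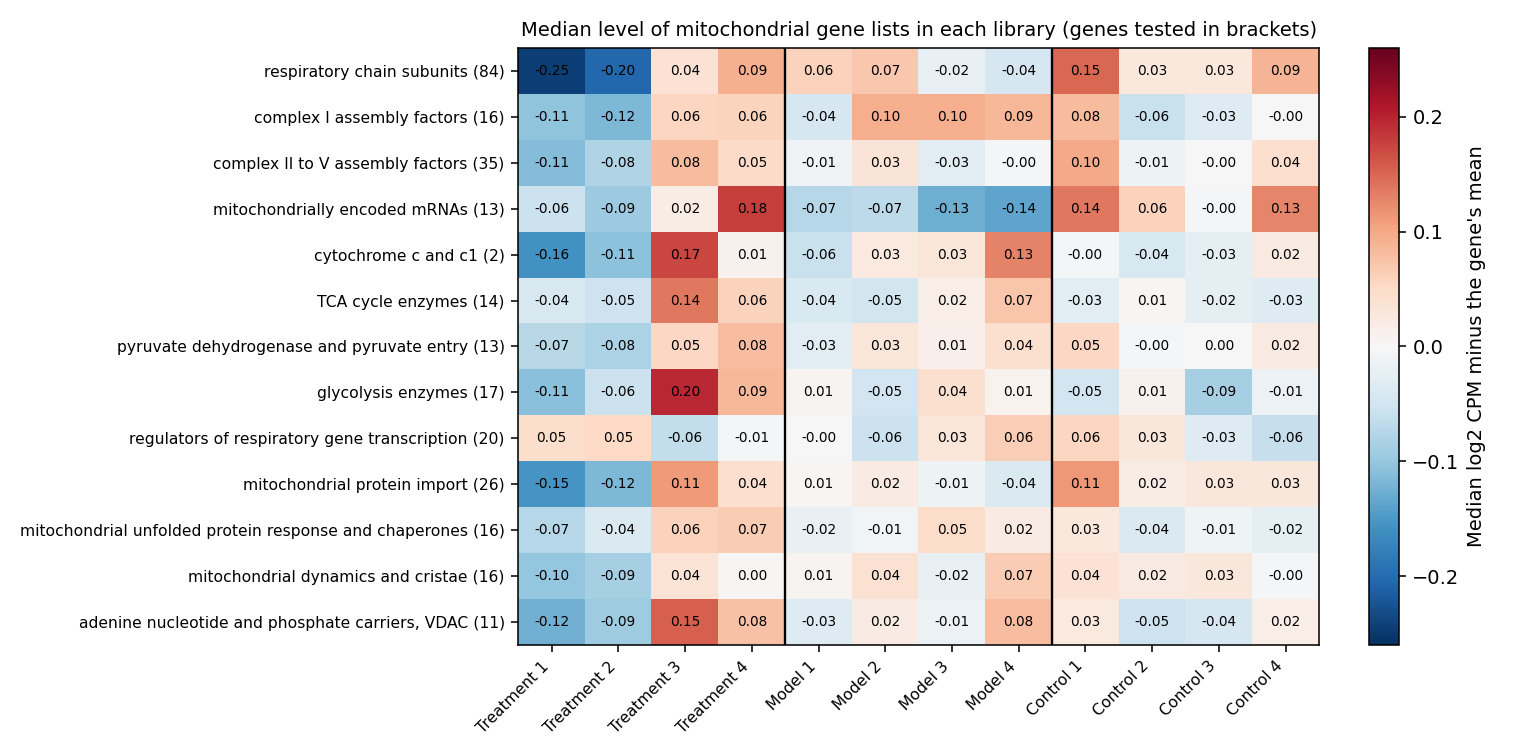
Median log2 CPM of each gene list in every library, minus each gene's mean over 12 libraries (red higher, blue lower), with the number of tested genes in brackets. The respiratory chain subunits reach -0.25 and -0.20 in Treatment replicates 1 and 2 and range from -0.04 to 0.15 in the other 10 libraries.

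The comparison of Treatment with Model addresses the effect of the compound under stress. In edgeR's quasi-likelihood test 0 of the 84 members passed an adjusted p of 0.05, where 1.88% of all 18600 genes did. At an unadjusted p under 0.05 there were 23 members (27.4%), against 18.5% of all genes, and 21 of them were lower (25%), against 8.69% of all genes. With effective length offsets these counts were 12 (14.3%, against 16.7%) and 9 lower (10.7%, against 7.85%), and limma on FPKM had 10 lower (11.6% of 86, against 6.62%), so on the length-aware scales the members' share was nearer to that of all genes. The median log2 fold change was -0.08 for the members, 61 of them negative, and 0.00 for all genes, of which 49.6% were negative. With effective length offsets the median was -0.03, with 55 negative against 49.3% of all genes. Within libraries of the shorter class (Treatment replicates 1, 2 and 3 against Model replicates 3 and 4) the median log2 CPM difference was -0.10, and within the longer class (Treatment replicate 4 against Model replicates 1 and 2) it was 0.03. By complex the medians on counts were -0.12 for complexes III and V, -0.08 for complex I, -0.06 for complex IV and -0.01 for complex II.

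The smallest p belonged to Atp5mj, a short membrane subunit of ATP synthase (12:111927809-111929142 in build GRCm39). It stood at 15.4, 11.4, 14.7 and 17.9 CPM in Treatment and 26.1, 24.0, 20.0 and 18.2 CPM in Model, with 27.8, 19.8, 22.2 and 23.0 CPM in Control. All 4 Treatment libraries lay below all others. The log2 fold change of Treatment over Model was -0.57 ± 0.14 (SE), with an adjusted p of 0.0521 in edgeR, and over the alternatives the adjusted p ran from 1.52e-06 to 0.250. In FPKM it stood at 144, 116, 156 and 139 in Treatment, 201, 191, 189.8 and 185 in Model and 224, 171, 186 and 192 in Control, again without overlap. Limma on log2(FPKM + 0.1) gave -0.47 with an adjusted p of 0.0458, and edgeR with effective length offsets -0.48 ± 0.11 with an adjusted p of 0.0488. Both use the deposited effective lengths, and on counts Atp5mj missed the threshold narrowly. It was the 1 member that passed in this limma fit (1.16% of 86, against 0.611% of all genes) and with offsets (1.19% of 84, against 0.876%). It did not pass in limma on unfiltered FPKM (adjusted p = 0.0978). With the shorter or longer class as a covariate it had -0.47 and did not pass either (adjusted p = 0.0516 in edgeR).

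Atp5mk, known as DAPIT, is another short membrane subunit, found where ATP synthases pair (19:47071903-47079064). Its values were 29.6, 28.5, 36.2 and 41.0 CPM in Treatment, 47.9, 54.6, 39.2 and 41.6 CPM in Model and 56.7, 45.2, 49.2 and 55.1 CPM in Control. Treatment replicate 4 reached into the Model range, and no Treatment library reached that of Control. The log2 fold change over Model was -0.43 ± 0.12 (adjusted p = 0.0757 in edgeR). Atp5mg, subunit g of the same membrane part, had 50.6, 51.6, 58.5 and 59.8 CPM in Treatment, 70.8, 65.3, 62.5 and 62.7 CPM in Model and 73.7, 63.2, 66.1 and 67.3 CPM in Control. Its 4 Treatment libraries lay below the other 8, with a log2 fold change of -0.24 ± 0.07 over Model (adjusted p = 0.0857 in edgeR), but in FPKM Treatment replicate 3, at 222 FPKM, was level with the highest Model library and the groups overlapped. By contrast Atp5f1b, the catalytic subunit, stood at 607, 670.3, 619.6 and 723 FPKM in Treatment, 647, 665, 656 and 599 FPKM in Model and 618, 716, 672 and 636 FPKM in Control, all overlapping.

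Ndufa4 had 70.1, 71.0, 91.8 and 89.6 CPM in Treatment, 104, 101, 90.4 and 98.0 CPM in Model and 115, 97.8, 100.1 and 104 CPM in Control, a log2 fold change over Model of -0.29 ± 0.09 (adjusted p = 0.101 in edgeR). Treatment replicates 1 and 2 were the lowest, and replicate 3 reached into the Model range. In the other complexes the smallest p in edgeR belonged to Uqcrh (-0.27 ± 0.10, adjusted p = 0.154), Cox7b, a structural subunit of complex IV (-0.20 ± 0.09, adjusted p = 0.241), and Sdhd (-0.20 ± 0.09, adjusted p = 0.249). On counts, 5 members were lower without overlap between the 4 Treatment and 4 Model libraries (5.95%, against 4.36% of all genes): Atp5mj, Atp5mg, Ndufc1, Ndufb2 and Atp5f1c, the gamma subunit that turns in the catalytic head. In FPKM there were 2 (2.38%, against 3.46%), Atp5mj and Atp5mk. Only Ndufa4l2 was higher without overlap on counts (1.19%, against 5.14%), at 1.44, 1.42, 2.83 and 1.77 CPM in Treatment and 1.33, 1.38, 1.21 and 0.772 CPM in Model, a log2 fold change of 0.67 ± 0.30 (adjusted p = 0.240 in edgeR). At so low a level, and with overlap in FPKM, this difference was not detectable beyond the spread.

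Ndufb2 shows how far the length scale can matter. On counts this membrane subunit of complex I had 26.4, 26.1, 27.7 and 28.0 CPM in Treatment and 31.3, 29.7, 28.7 and 29.9 CPM in Model, without overlap (log2 fold change -0.15 ± 0.06, adjusted p = 0.197 in edgeR). In FPKM it had 52.7, 52.8, 63.8 and 59.8 in Treatment and 54.1, 49.6, 55.5 and 49.4 in Model, so the sign turned, with 0.13 in limma (adjusted p = 0.388) and 0.12 ± 0.09 with offsets (adjusted p = 0.530). Its effective length was 434 to 499.8 bases in Treatment and 507 to 598 bases in Model, without overlap, and whether the mix of transcripts changed was not tested.

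**Figure D4:**
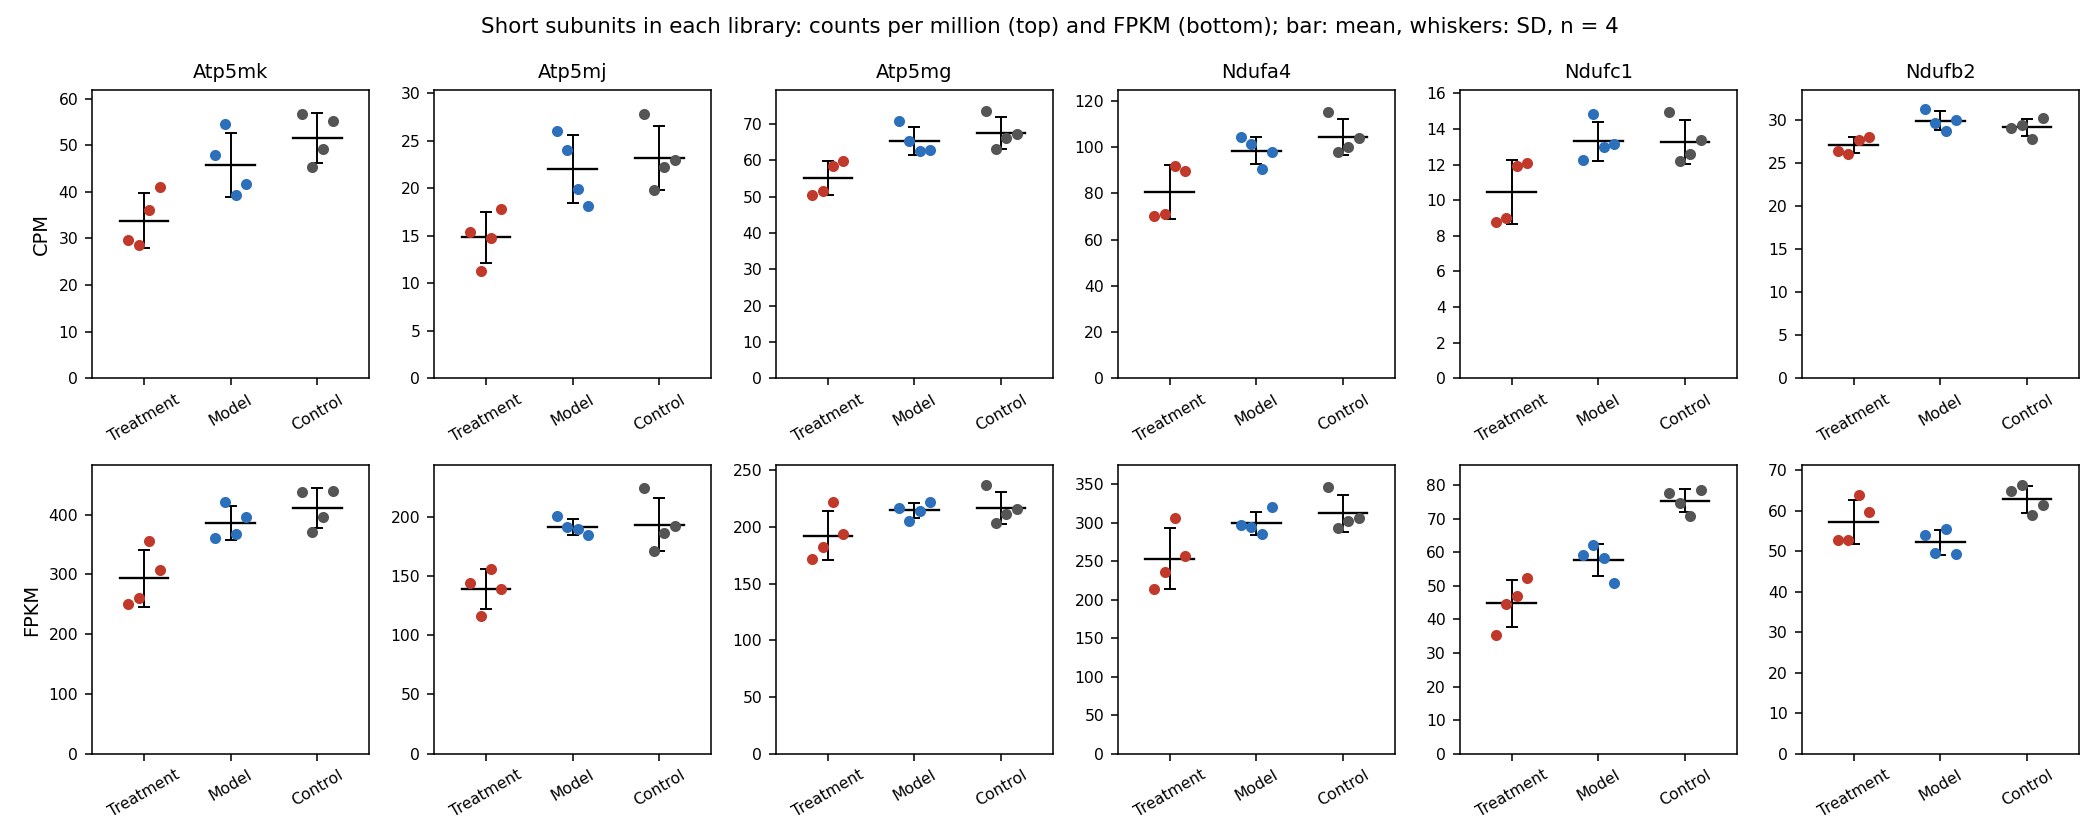
CPM (top) and FPKM (bottom) of 6 short subunits in every library (points, replicates 1 to 4 from left to right), with the group mean (bar) and SD (whiskers, n = 4). Atp5mj is lower in all 4 Treatment libraries than in all 8 others on both scales, whereas Ndufb2 is lower in Treatment than in Model on counts and overlaps in FPKM.

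Treatment was also set against Control, to ask where treated stressed mice stood relative to unstressed ones. These fold changes share the Treatment libraries with those above, so the values stand side by side and are not independent. Again 0 of 84 members passed an adjusted p of 0.05 in edgeR (0.102% of all genes did). At an unadjusted p under 0.05 there were 28 (33.3%, against 13.9% of all genes), and 26 of these were lower (31%, against 6.56%). With effective length offsets there were 20 (23.8%, against 12.3%), 17 of them lower (20.2%, against 5.55%), and limma on FPKM had 24 lower (27.9% of 86, against 6.13%). The median log2 fold change was -0.13, with 71 of 84 negative, against -0.01 and 52.1% negative over all genes. With effective length offsets it was -0.07, with 62 negative against 51.4% of all genes. By complex the medians on counts were -0.16 for complex III, -0.13 for complex I, -0.11 for complexes IV and V and -0.01 for complex II, and with offsets -0.08 for complex III, -0.09 for complex I, -0.06 for complex IV and -0.11 for complex V. Members under 300 bases had a median of -0.30 on counts, where all 302 tested genes of that length had -0.23. With offsets these medians were -0.18 and -0.11. Between 300 and 700 bases the members had -0.11 on counts and -0.06 with offsets, against -0.12 and -0.06 for all genes of that length. Members over 700 bases had -0.09 on counts and -0.08 with offsets, against 0.00 and 0.00 for all genes of that length. Since all Control libraries are of the longer class, class and group cannot be told apart for Treatment replicates 1, 2 and 3. Treatment replicate 4, the 1 treated library of that class, differed from Control by a median of 0.02 in log2 CPM, with 38 of 84 negative.

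On counts, short membrane subunits of ATP synthase had the smallest p-values in edgeR, whereas with offsets and in FPKM the smallest belonged to Ndufc1. Atp5mk, with the values above, had a log2 fold change over Control of -0.61 ± 0.12 (adjusted p = 0.0714 in edgeR, and 0.127 with offsets, where it was -0.48 ± 0.11). Atp5mj had -0.64 ± 0.14 (adjusted p = 0.0891 in edgeR), and Atp5mf, subunit f, -0.30 ± 0.07 (adjusted p = 0.0914). Atp5mf had 46.5, 41.8, 50.5 and 47.5 CPM in Treatment, 55.0, 53.1, 51.8 and 49.7 CPM in Model and 62.1, 55.8, 53.0 and 58.5 CPM in Control, so the Treatment and Control libraries did not overlap. Atp5mg had -0.29 ± 0.07 and Ndufa4 -0.37 ± 0.09, both with an adjusted p of 0.108. In complex IV the smallest p in edgeR belonged to Cox6c, with 80.6, 74.6, 91.0 and 102 CPM in Treatment and 118, 101, 104 and 111 CPM in Control (-0.31 ± 0.09, adjusted p = 0.134). In complex III that of edgeR belonged to Uqcr10, with 24.0, 23.4, 31.3 and 36.6 CPM in Treatment and 39.4, 37.0, 35.1 and 38.2 CPM in Control (-0.38 ± 0.12, adjusted p = 0.169), and in complex II to Sdhd (-0.16 ± 0.09, adjusted p = 0.435).

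**Figure D5:**
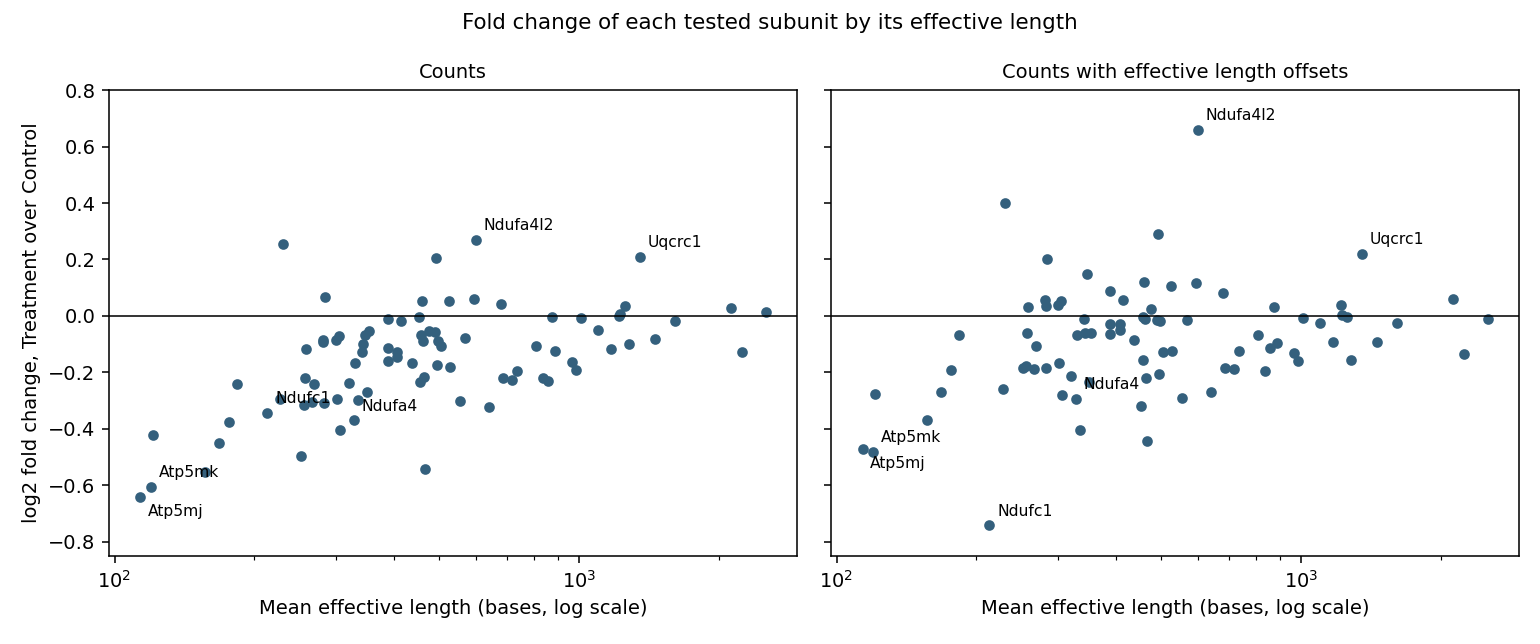
Log2 fold change of Treatment over Control for each tested subunit against its mean effective length in bases (log scale), on counts (left) and with effective length offsets (right). On counts the members under 300 bases have a median of -0.30, and with offsets -0.18; Atp5mk and Atp5mj are at -0.61 and -0.64 on counts and at -0.48 and -0.47 with offsets.

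Ndufc1, a small accessory subunit of complex I (3:51312098-51316409), is described here after its values were seen. It passed in limma on FPKM and in edgeR with effective length offsets, which both use the deposited effective lengths. It did not pass with offsets for length and level trends, or with the shorter or longer class as a covariate. Over the alternatives its log2 fold change over Control ran from -0.76 to -0.16. In FPKM it had 35.5, 44.7, 46.8 and 52.3 in Treatment, 59.1, 62.2, 58.4 and 50.9 in Model, and 77.6, 74.8, 70.8 and 78.4 in Control. Every Treatment library lay below every Control library, and the Model libraries lay below Control too and overlapped Treatment. Limma on FPKM gave -0.76 over Control with an adjusted p of 0.0281 (1 of 86 members, 1.16%, against 0.0751% of all genes). EdgeR with offsets gave -0.74 ± 0.12 with an adjusted p of 0.0409 (1 of 84 members, 1.19%, against 0.102%), whereas on counts it was -0.34 ± 0.12 with an adjusted p of 0.205. In CPM the values were 8.77, 9.02, 11.9 and 12.1 in Treatment, 12.2, 14.8, 13.0 and 13.2 in Model, and 15.0, 12.2, 12.6 and 13.4 in Control. Its effective length was 204 to 254 bases in Treatment and 207 to 255 in Model but 164 to 196 in Control. The FPKM difference is thus larger than the difference in counts by a shift in effective length, and which of its transcripts took the reads was not tested.

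Between Treatment and Control 9 members were lower without overlap on counts (10.7%, against 3.24% of all genes): Atp5mk, Atp5mj, Atp5mf, Ndufa4, Atp5mg, Ndufb11, Ndufc1, Ndufv3 and Ndufs1. In FPKM 7 were (8.33%, against 2.92%), and 6 were on both scales: Atp5mk, Atp5mj, Atp5mf, Ndufb11, Ndufc1 and Ndufs1. Ndufs1, the large iron-sulfur subunit of complex I and no short gene, had 54.2, 54.9, 56.6 and 55.7 FPKM in Treatment, 55.2, 62.5, 61.6 and 61.3 FPKM in Model and 64.1, 58.5, 61.2 and 60.3 FPKM in Control. The difference from Control was small, -0.13 ± 0.06 on the log2 scale with an adjusted p of 0.318 in edgeR. Ndufb11, a membrane subunit of complex I, had 50.2, 52.8, 68.2 and 66.2 FPKM in Treatment, 71.5, 64.7, 62.1 and 61.4 FPKM in Model and 79.6, 70.5, 70.0 and 68.2 FPKM in Control. Its highest Treatment and lowest Control library nearly met (-0.32 ± 0.10, adjusted p = 0.181 in edgeR). Uqcrc1, a core protein of complex III (9:108765701-108778691), was the 1 member higher without overlap in FPKM (1.19%, against 3.54%). It had 141, 153, 176 and 151 FPKM in Treatment, 129.7, 129, 137 and 142 FPKM in Model and 126, 137, 132 and 140.4 FPKM in Control, a log2 fold change over Control of 0.21 ± 0.07 (adjusted p = 0.189 in edgeR).

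Ndufb1 and Cox6b1 had a wide spread within Treatment. Ndufb1, the tested member of lowest level named for complex I apart from Ndufa4l2, had 15.6, 15.2, 28.9 and 30.2 FPKM in Treatment, 32.1, 33.5, 23.1 and 22.6 FPKM in Model and 37.8, 25.9, 26.5 and 33.3 FPKM in Control. Treatment replicates 1 and 2 were the lowest of the 12, and replicates 3 and 4 stood within both other groups (-0.54 ± 0.22 over Control, adjusted p = 0.275 in edgeR). Cox6b1, which faces the intermembrane space in complex IV, had 139.6, 143, 196 and 214 FPKM in Treatment, 238, 210.4, 177 and 171 FPKM in Model and 229.5, 195, 182 and 200.5 FPKM in Control, with the same libraries lowest (-0.24 ± 0.12 over Control, adjusted p = 0.382 in edgeR).

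The list of core subunits used here is not limited to catalytic ones and holds the regulatory Cox4i1 and the membrane anchors Sdhc and Sdhd. In this list Ndufs1, Uqcrc1, Atp5f1c and Sdhc lacked overlap in a comparison on at least 1 scale and are given with it. Other core subunits overlapped between the groups on both scales, of which examples follow. Ndufv1, which binds NADH and FMN, had 59.0, 59.2, 71.8 and 64.8 FPKM in Treatment, 60.1, 58.8, 63.1 and 62.3 FPKM in Model and 64.9, 66.1, 63.3 and 60.8 FPKM in Control. Sdha had 126, 136, 142 and 134 FPKM in Treatment, 136, 134, 133 and 135 FPKM in Model and 136, 134, 134 and 140.1 FPKM in Control. Uqcrfs1, the Rieske iron-sulfur protein of complex III, had 64.8, 61.3, 81.7 and 63.8 FPKM in Treatment, 65.6, 70.1, 73.3 and 78.1 FPKM in Model and 74.6, 63.2, 70.4 and 69.0 FPKM in Control. Cox4i1 had 452, 534, 631 and 533 FPKM in Treatment, 505, 467, 545 and 528 FPKM in Model and 523, 536, 527 and 538 FPKM in Control. In Sdha, Uqcrfs1 and Cox4i1 the highest library of the 12 was Treatment replicate 3, as in Ndufv1. No test of core against accessory subunits was made. Cox8a, the member of highest level, stood at 659, 777, 941 and 756 FPKM in Treatment, 650.3, 641, 724 and 673 FPKM in Model and 663, 707, 673 and 688 FPKM in Control, with a log2 fold change over Model of 0.13 ± 0.08 (adjusted p = 0.402 in edgeR).

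Model was compared with Control to ask what stress alone changes. In edgeR 0 of 84 members passed an adjusted p of 0.05, against 0.79% of all genes, and 0 had an unadjusted p under 0.05 on counts, against 15.6% of all genes (7.85% lower). With effective length offsets 2 did, both lower (2.38%, against 12.8% of all genes and 6.45% lower), and limma on FPKM had 3, all lower (3.49% of 86, against 7.43%). These fits estimate the spread of each gene over all 12 libraries, Treatment included. For the members the median SD was 0.20 in Treatment against 0.08 in Model and in Control, a wider gap than for all genes (0.20, 0.16 and 0.15). How far this lowered the members' counts at unadjusted p was not tested. In an edgeR fit of only the 8 Model and Control libraries 0 of 84 members passed the adjusted threshold, against 2.48% of all genes. The median log2 fold change was -0.05, with 60 negative, against -0.01 and 52.7% negative over all genes, and with offsets -0.03, with 53 negative against 52%. All 15 tested members of complex IV were negative on counts, with a median of -0.07, and 11 were with offsets, with a median of -0.03. Within libraries of the longer class (Model replicates 1 and 2 against 4 Control libraries) the median log2 CPM difference of all members was -0.01. Sdhc, a membrane anchor of complex II, had the smallest p and was the 1 member lower without overlap on counts (1.19%, against 5.46% of all genes). It had 68.5, 72.7, 72.3 and 71.4 CPM in Model and 82.6, 79.1, 74.8 and 75.1 CPM in Control, a log2 fold change of -0.13 ± 0.06 (adjusted p = 0.327 in edgeR). The Treatment libraries, at 70.6, 76.3, 85.5 and 78.1 CPM, spanned both groups. In FPKM 4 members did not overlap (4.76%, against 5.38%): Sdhc, Cox7a2l, Ndufb2 and Ndufc1. The smallest p of the other complexes in edgeR belonged to Cox6b2 (-0.55 ± 0.28, adjusted p = 0.367, at a level near 1 CPM), Atp5mf (-0.13 ± 0.07, adjusted p = 0.368), Ndufb4 (-0.20 ± 0.12, adjusted p = 0.479) and Uqcr10 (-0.15 ± 0.12, adjusted p = 0.572). The value of Ndufb4 may be affected by reads shared with the pseudogene Ndufb4c, which was not tested.

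The number of members called depended on the tool. DESeq2, which also called more of all genes, called 4 members lower in Treatment than in Model (4.76%, against 5.91% of all genes), Atp5mg, Atp5mj, Atp5mk and Ndufa4. Against Control it called 8 lower (9.52%, against 2.37%), which were Atp5f1e, Atp5mf, Atp5mg, Atp5mj, Atp5mk, Cox6c, Ndufa1 and Ndufa4, and between Model and Control it called 0 (against 3.72%). Limma-voom called 0 members in Treatment against Model (1.71% of all genes), in Treatment against Control (0.0484%) and in Model against Control (0.473%). EdgeR without the count filter called 8 members against Model (9.09% of 88, against 2.6%), 15 against Control (17%, against 1.78%) and 0 between Model and Control (against 1.87%). Between Model and Control 0 were called with effective length offsets either (against 0.124%), or by limma on FPKM (against 0.0268%). Every member called under any of these settings was lower in Treatment, and Atp5mj was among those of DESeq2, of the unfiltered fit and of the length-aware scales against Model.

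The medians moved with single Treatment libraries. Without Treatment replicate 1 the median log2 fold change of the members was -0.03 against Model and -0.08 against Control, and without replicate 2 it was -0.04 and -0.08. Without replicate 3 it was -0.14 and -0.18, with Ndufa4 called against Model (2.4% of all genes were called in that fit), and Atp5mf and Ndufa4 against Control (0.381% of all genes), and without replicate 4 it was -0.15 and -0.20. Without Control replicate 1 or without Model replicate 4, Atp5mj passed against Model, with adjusted p-values of 0.0464 and 0.0463 in edgeR, where 1.44% and 1.14% of all genes passed. In the other fits that left out 1 library, Atp5mj did not pass against Model. Its adjusted p in edgeR ran there from 0.0517 (without Treatment replicate 4) to 0.158 (without Model replicate 2). Without Treatment replicates 2 and 3 together its log2 fold change was -0.40 (adjusted p = 0.250 in edgeR). With the choroid plexus score of each library as a covariate the medians were -0.08 for Treatment against Model, -0.19 for Treatment against Control and -0.11 for Model against Control.

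Few other genes of the pathway passed the test. Of 16 tested complex I assembly factors, which build the complex and are not part of it, 0 passed in any comparison, with medians of -0.06 for Treatment against Model, -0.03 for Treatment against Control and 0.03 for Model against Control. The same held for 35 assembly factors of complexes II to V (medians -0.04, -0.02 and -0.01), 14 enzymes of the TCA cycle (0.02, 0.05 and 0.01), 26 genes of mitochondrial import (-0.04, -0.11 and -0.04) and 20 transcriptional regulators (-0.01, 0.01 and 0.01). Of the 13 mitochondrially encoded mRNAs, whose products join the members in complexes I, III, IV and V, 1 passed: mt-Nd5, a core subunit of complex I, was higher in Treatment than in Model (0.25 ± 0.05, adjusted p = 0.0283 in edgeR) and lower in Model than in Control (-0.30 ± 0.05, adjusted p = 0.0183). These 13 had medians of 0.11, -0.06 and -0.16, and summed to 92032 to 107455 FPKM in Treatment, 86898 to 95319 FPKM in Model and 97839 to 104612 FPKM in Control. In edgeR the members encoded in the nucleus had a median of -0.08 where the mitochondrial ones had 0.11, in Treatment against Model, and the difference between the lists was not tested.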

How the data were processed

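Poly(A) RNA of hippocampus from 12 libraries was sequenced as read pairs, and the labels do not say whether strand was kept. Per the submitters' processing notes the aligner STAR 2.7.10a and the quantifier Salmon 1.10.1 were among the tools, beside FastQC 0.12.1 and the trimmers cutadapt 3.4 and Trim Galore 0.6.7, with build GRCm39. The authors deposited estimated counts per gene, of which 28.8% of the values above 0 are not whole (tolerance 1e-06). The authors also deposited FPKM for the same genes and libraries. From the pair of values an effective length per gene and library was computed, and it differs between libraries.

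Counts were rounded and tested with edgeR 4.0.16 in R 4.3.3 (filterByExpr, TMM scaling, quasi-likelihood F test, all 12 libraries in one fit, Benjamini-Hochberg adjustment over 18600 genes, threshold 0.05). FPKM were tested with limma 3.58.1 on log2(FPKM + 0.1), a scale that understates changes of low genes, for genes with at least 0.5 FPKM in 4 libraries. DESeq2 1.42.0 and limma-voom served as alternatives, as did other filters, leaving out libraries, and covariates. The effective length offsets and the effective length split as a covariate were chosen after seeing the data. Scripts were tested on simulated data. Library totals of 17083260 to 27479083 counts limit precision mainly for members near 1 CPM. No 2 columns were identical, and replicates correlated at 0.976 to 0.987. The 21883 rows without a symbol could not be matched by name.

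The members and gene lists were chosen with earlier results of these data known. Named were all members called, the 3 of highest level in each complex, the listed core subunits and the isoform pairs. Also named were the smallest p in each complex and comparison, up to 5 members without overlap in each comparison, and the 3 of lowest and highest variation. Ndufb1, Ndufb11, Cox6b1 and Ndufc1 in FPKM were added after their values were seen. Promoter windows came from RefSeq GRCm38.p6 and gene coordinates from the deposited table (GRCm39), with no conversion between them.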

Additional observations from a re-analysis of the deposited data

Results flagged for a closer look

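Among the 150 groups of 4 libraries examined for members named in the text, 4 held a library far from the other 3 in FPKM, and chance alone marks about 1 in 20 groups. Uqcrfs1 was at 81.7 FPKM in Treatment replicate 3, against 61.3 to 64.8 FPKM in the other Treatment libraries. Ndufs1 was at 55.2 FPKM in Model replicate 1, against 61.3 to 62.5 FPKM in the other Model libraries. Ndufa12, an accessory subunit of complex I, was at 144.7 FPKM in Control replicate 3, against 139.3 to 139.6 FPKM in the other Control libraries. Sdhc was at 83.7 FPKM in Control replicate 1, against 75.1 to 76.1 FPKM in the other Control libraries.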

How the results depend on the processing

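The number of members past the threshold was 0 in each comparison in the fit reported. Against Model it was 4 with DESeq2 (5.91% of all genes), 8 without a filter on low counts (2.6%) and 4 with offsets for length and level trends (3.29%). It was 1 (Atp5mj) with FPKM at a pseudocount of 0.1 (0.611%) or 1 (0.595%), at least 1 CPM in 8 libraries (2.94%), the choroid plexus covariate (1.95%) or effective length offsets (0.876%). Against Control it was 8 with DESeq2 (2.37%), 15 without the filter (1.78%), 2 with trend offsets (0.36%), and 1 (Ndufc1) with effective length offsets (0.102%) and with FPKM at a pseudocount of 0.1 (0.0751%) or 1 (0.0483%) or without a filter (0.0286%). With the effective length split as a covariate it was 0 against Model (1.49% of all genes) and 0 against Control (0%). Leaving out 1 library gave 0 to 1 members against Model and 0 to 2 against Control, while calls over all genes ran from 0 (without Model replicate 2 or 3) to 459 (without Treatment replicate 3) against Model, and from 0 (without Control replicate 1) to 73 (without Treatment replicate 3) against Control, beside 350 and 19 with all libraries. Between Model and Control it was 0 in every alternative run.

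Same-numbered libraries correlated at -0.04 to 0.11, and libraries of different numbers at -0.14 to 0.15. These are not correlations of whole profiles, which stood at 0.976 to 0.987 between replicates of a group. The same-numbered and different-numbered values cannot decide whether the numbers pair the libraries. With the replicate number as a block 1 member, Atp5mj, passed against Model (adjusted p = 0.0402 in edgeR, 2.32% of all genes called) and against Control (0.0479, 0.634% of all genes, where 0.102% passed without the block), and no member passed between Model and Control.

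The members' median log2 fold change ranged over the alternatives from -0.15 to -0.02 for Treatment against Model, -0.20 to -0.04 for Treatment against Control and -0.11 to 0.02 for Model against Control, positive only with the effective length split. Of the single-gene values, 811 kept their direction and side of the threshold, 47 passed it newly and 5 turned sign. Ndufb2 in Treatment against Model was at 0.13 with FPKM (both pseudocounts, and unfiltered) and 0.12 with effective length offsets. Uqcr10 in Model against Control was at 0.0045 with the split as a covariate. The cause was not tested. Members near 1 CPM, such as Cox6b2 and Ndufa4l2, rest on few counts.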
